A study of Brachypodium distachyon with 24 samples.

Results

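Reads from a hybrid can be assigned to a parent only where the parental alleles differ in sequence. The genes described here lie in stretches of the Brachypodium distachyon genome where no expressed gene met a strict criterion for that assignment. Genes with a total count above 0 in more than 10 of 24 leaf libraries were put in the order of their identifiers and divided along each of the 5 chromosomes into consecutive blocks of 50. A gene was taken as distinguishable when, in all 14 parental libraries, the count of the plant's own allele was above 1 and the opposing allele held under 20% of the count. Of 456 blocks, 94 (20.6%) held 0 distinguishable genes. Their 4617 genes, of 22636 in blocks, were all analysed, and are called the genes of undistinguished blocks. Single genes among them can still carry allele information in some libraries.

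Brachypodium distachyon is a largely selfing grass, and an inbred accession such as Bd21 or Bd3-1 is close to homozygous. Sequence differences between inbred accessions are spread unevenly along chromosomes, so that some stretches hold many and others few. Transcript abundance of a gene can differ between accessions through variants at the gene itself (cis) or through regulators encoded elsewhere (trans), and only the first needs a sequence difference near the gene. In an F1 hybrid, the share of reads from each allele separates cis from trans, but this requires a variant inside the transcript. Where none was found, total transcript abundance is the only measure left, and the question for these blocks was whether the accessions still differed in it.

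RNA was sequenced from leaves (the youngest fully expanded ones, as stated for the F1 harvest) of Bd21, Bd3-1 and their F1 hybrid, made with Bd21 pollen on emasculated Bd3-1 flowers. Control plants were kept at 85% of field capacity, and drought plants were dried down to 55% over 6 days from day 33 after sowing. There were 3 Bd21 control, 3 Bd21 drought, 5 Bd3-1 control, 3 Bd3-1 drought, 5 F1 control and 5 F1 drought plants. The F1 plants were grown and dried down apart from most parental plants, so that generation and experiment cannot be told apart, and 2 of the Bd3-1 control plants came from the F1 harvest without a label that says which. Comparisons that use the Bd3-1 control plants therefore mix harvests, and the part of harvest in their calls was not tested.

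Total counts ranged from 6905973 to 42354206 per library (median 21579368). Bd21 control replicate 1 and Bd21 drought replicate 2 had the lowest totals among parental libraries and listed 4974 and 4733 of the 22639 tested genes at 0, against at most 3121 in any other library. Counts of calls between the accessions are also given without them. With these libraries left out of the allele criterion, 3317 genes lay in undistinguished blocks. Bradi4g31257, which encodes a chlorophyll A-B binding protein and so marks green leaf tissue, was detected in every library, at normalized counts of 802 to 5079 (median 1885). Markers of other tissues were not analysed here, since the files do not pair identifiers with gene names. A normalized count is the count of a gene scaled by the library's total and its TMM factor, and it is not corrected for gene length.

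The undistinguished blocks lay on all 5 chromosomes. They made up 34 of 134 blocks on chromosome 1, 22 of 104 on chromosome 2, 16 of 101 on chromosome 3, 16 of 74 on chromosome 4 and 6 of 43 on chromosome 5. The median block held 6 distinguishable genes and the richest held 29. Neighbouring undistinguished blocks joined into 58 stretches, of which 36 were a single block, 13 were 2 blocks and 9 were 3 or more. The longest ran over 6 blocks of chromosome 2, from Bradi2g19440 to Bradi2g23240, and held 300 expressed genes. Stretches of 4 blocks ran from Bradi1g08620 to Bradi1g11050 and from Bradi4g32787 to Bradi4g35045. Blocks at the end of a chromosome are shorter, and the 2 shortest undistinguished blocks held 3 and 14 genes.

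**Figure D1:**
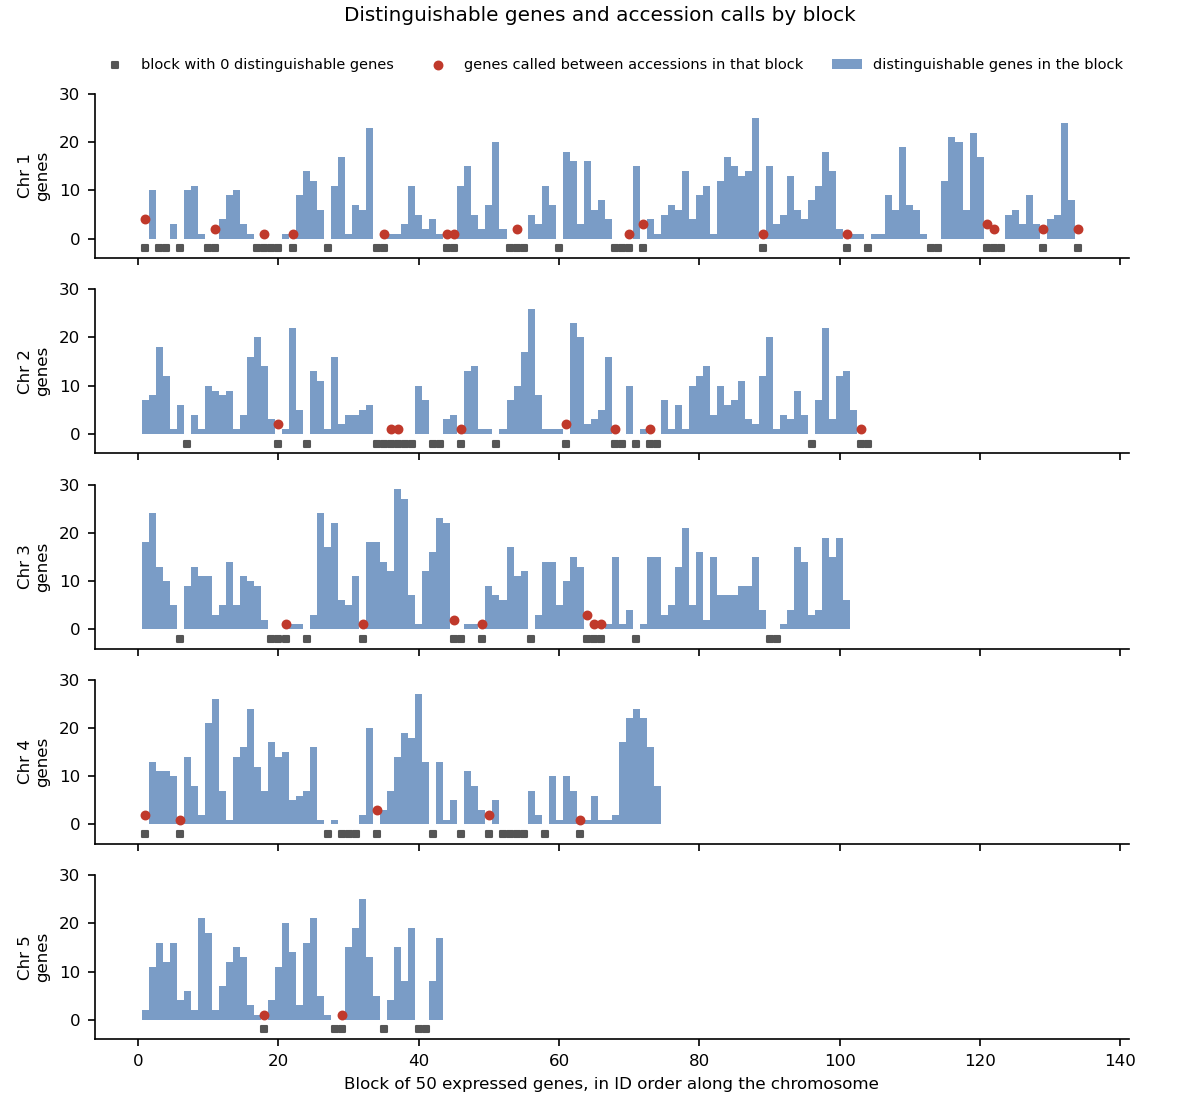
Each panel is a chromosome, with blocks of 50 expressed genes in identifier order on the x axis. Bars give the number of distinguishable genes in a block, grey squares mark the 94 undistinguished blocks, and red points give the number of their genes called between accessions, at most 4 in a block.

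Most of the genes in these blocks carried no allele information at all. In 3977 of 4617 (86.14%) the deposited counts of both alleles were equal, to within 1e-06 counts, in every one of the 24 libraries, against 52.8% of the other genes in blocks. The genes were selected on the parental allele counts of these columns, so this share is a description. The remaining 640 genes had unequal counts in at least 1 library. The genes were not of low abundance. Their median mean normalized count was 227, against 223 in the other genes, and 68.9% had a total above 1 in all parental libraries, against 67.4%. Per library they took up 18.6% to 20.0% of all counts.

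Some genes lay close to the criterion. In 4146 genes it failed in all 14 parental libraries, whereas 34 genes passed in 13 of 14. Among these 34, 14 failed only in Bd21 control replicate 1 and 13 only in Bd21 drought replicate 2, and 33 failed because the opposing allele reached 20%. In the F1 libraries summed, the Bd21 allele held a median of 49.8% of the counts of these 34 genes (21.5% to 71.6%). On the other side of the threshold, 48 blocks held exactly 1 distinguishable gene. Since passing required an own-allele count above 1 throughout, a gene silent in 1 accession could not be distinguishable whatever its sequence. There were 6 genes that passed in all 8 Bd3-1 libraries and in 0 of the 6 Bd21 libraries, and 2 with the reverse.

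The accessions did differ in these blocks, in few genes. Between Bd3-1 and Bd21, averaged over control and drought, 59 of the 4617 genes differed at an adjusted p of 0.05 (edgeR quasi-likelihood test, Benjamini-Hochberg over all 22639 genes), which is 1.28%. That adjustment limits false calls over all genes tested. Their share among these 59, or in the smaller sets below, can exceed 0.05 and was not estimated. The share called was 4.74% over all genes tested and 5.62% (1013 of 18019) over the genes of the other blocks. Transcript abundance was higher in Bd3-1 in 35 of the 59 and lower in 24, where 2.02% of all genes were called higher and 2.72% lower. In the other blocks, 421 were higher and 592 lower in Bd3-1. Libraries of the accessions did not overlap, in either condition, in 57 genes of undistinguished blocks (1.23%), against 3.97% of all genes, and 27 of the 57 were among the 59 called. At an unadjusted p under 0.05 there were 453 (9.81%), against 15.5% of all genes.

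The median standard error of the log2 difference was 0.298 in these genes and 0.306 over all genes. Among genes with a total above 1 in all parental libraries, the median absolute log2 difference was 0.184 in undistinguished blocks (n = 3182) and 0.211 in the other blocks (n = 12150), and 33 (1.04%) and 553 (4.55%) were called. Among genes with equal alleles in every library, 43 of 3977 (1.08%) were called in undistinguished blocks and 302 of 9513 (3.17%) in the others. With both conditions applied together the shares were closer, at 28 of 2798 (1%) and 103 of 6422 (1.6%), and the median absolute log2 difference was 0.184 and 0.188. Of all equal-allele genes called, 26 of 43 were higher in Bd3-1 in undistinguished blocks and 82 of 302 in the other blocks. Without Bd21 control replicate 1 and Bd21 drought replicate 2, 39 genes of undistinguished blocks were called (0.845%), against 816 (4.53%) of the others, with 21 called in control plants and 12 in drought plants. Of the 3317 genes in undistinguished blocks when the allele criterion leaves these libraries out, 45 were called (1.36%).

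The share of genes called between accessions increased with the number of distinguishable genes in the block. It was 1.28% in blocks with 0, 1.33% in blocks with 1, 2.56% with 2 to 4, 4.72% with 5 to 9, 6.41% with 10 to 14, 9.64% with 15 to 19 and 11.6% with 20 to 29. Blocks with 0 and with 1 distinguishable gene thus had nearly the same share. Among equal-allele genes, whose counts carry no allele information, the same classes gave 1.08%, 1.22%, 1.75%, 2.80%, 3.64%, 9.07% and 14.1%. Among genes that were not distinguishable themselves, they gave 1.28%, 1.36%, 2.2%, 4.01%, 5.5%, 9.87% and 11.2%. Both sets include genes silent in 1 accession, which could not be distinguishable and, without Bd3-1 reads, can have had no variants to find. Of equal-allele genes with a total above 1 in all parental libraries, 1% were called in undistinguished blocks and 1.6% in the others. Their shares by class were not computed. Without the pair of Bd21 libraries with the most genes at 0, the shares over all genes were 0.845%, 0.875%, 1.51%, 3.56%, 5.08%, 8.94% and 9.65%. The drought response of the F1 hybrid was called in 14.7% of the genes of undistinguished blocks and in 14.1% to 15.5% of all genes in the 6 other classes. Among equal-allele genes it lay between 14.7% and 16.4% in the first 6 classes and was 10.4% in the last. Among genes that were not distinguishable it went the other way from the accession calls, at 14.7%, 14.7%, 15.1%, 13.5%, 13%, 10.5% and 8.41%.

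**Figure D2:**
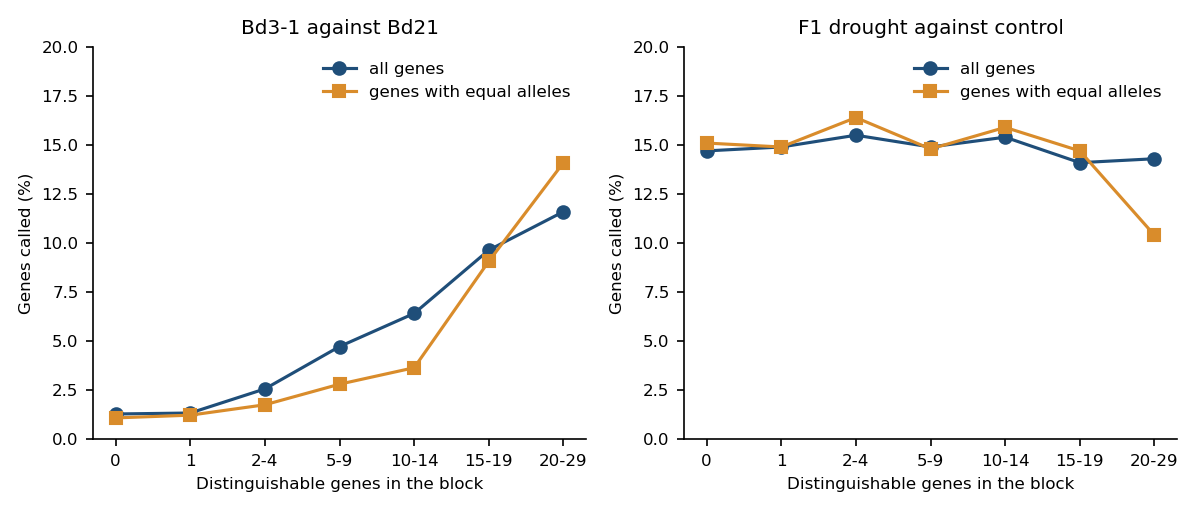
Percentage of genes called (y axis) by the number of distinguishable genes in their block (x axis), for Bd3-1 against Bd21 (left) and for drought against control in the F1 hybrid (right). Accession calls go from 1.28% to 11.6% of all genes, and F1 drought calls of all genes stay between 14.1% and 15.5%. Squares are genes with equal alleles in every library, of which 10.4% were called for F1 drought in the last class. Genes silent in Bd3-1, such as Bradi1g78826, are among these genes.

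Each condition gave fewer calls. Between control plants, 23 genes of undistinguished blocks differed (0.498%), against 2.51% of all genes tested, 11 higher in Bd3-1 (all genes 0.835%) and 12 lower (1.68%). Between drought plants, 12 differed (0.26%), against 1.86% of all genes, 10 higher in Bd3-1 (all genes 0.671%) and 2 lower (1.19%). DESeq2 called more, with 109 genes over both conditions, 54 in control and 32 in drought. Control and drought libraries come from different plants, so each set can be looked up in the other. All 23 genes called in control had the same direction in drought, and 8 of them were called in both. Of the 12 called in drought, 11 had the same direction in control. Over all genes tested, the same direction was found in 562 of 569 and 418 of 422.

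The 59 genes lay in 38 of the 94 undistinguished blocks. The other 56 (59.6%) held 0 called genes, as did 65 of the 362 other blocks (18.0%). The most in an undistinguished block was 4, in the first block of chromosome 1 (Bradi1g00210 to Bradi1g00750), where 3 were higher in Bd3-1. Other blocks reached 20. In 3 blocks, on chromosome 1 (Bradi1g42940 to Bradi1g43607), chromosome 3 (Bradi3g39880 to Bradi3g40400) and chromosome 4 (Bradi4g21949 to Bradi4g22610), 3 genes were called and all 3 were higher in Bd3-1. The remaining undistinguished block with 3 called genes, on chromosome 1 (Bradi1g70930 to Bradi1g71430), had 1 that was higher in Bd3-1. A called gene had another called gene within 5 expressed genes on either side in 21 of 59 cases (35.6%), and over all called genes in 65.8%. A lower share of called genes by itself gives more blocks with 0 and fewer called neighbours, so these values do not show how the genes cluster. Single undistinguished blocks held 31 called genes of 1753 (1.77%), stretches of 2 blocks 11 of 1264 (0.87%) and stretches of 3 or more 17 of 1600 (1.06%). The longest stretch, of 300 genes, held 2. By chromosome, 28 of 1653 genes were called on chromosome 1, 10 of 1064 on chromosome 2, 10 of 800 on chromosome 3, 9 of 800 on chromosome 4 and 2 of 300 on chromosome 5. Of all genes in blocks, 3.89%, 4.11%, 4.64%, 6.47% and 6.14% were called on chromosomes 1 to 5.

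The largest differences were near presence and absence. In 15 of the 59 genes (25.4%) every library of 1 accession had under 3 counts, 11 in Bd21 and 4 in Bd3-1. Over all called genes this share was 22.9% (246 of 1073), with 73 in Bd21 and 173 in Bd3-1. The other 44 genes of undistinguished blocks had a median absolute log2 difference of 1.07, and the smallest called was 0.35. Bd3-1 variants were called by the authors from Bd3-1 reads, so a gene without Bd3-1 reads can have had no variants to find. The 4 genes with the largest differences are described next, and the files give no function for them.

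Bradi1g00210, the first gene of the first block of chromosome 1, was listed at 0 in all 6 Bd21 libraries. Its normalized counts were 519, 568.2, 771, 388 and 664 in Bd3-1 control and 941, 790 and 1008 in Bd3-1 drought. The mean in Bd3-1 was at least 150-fold that in Bd21, where the bound uses a floor of 3 counts per Bd21 library (adjusted p = 4.12e-14). The F1 hybrid lay between them, at 131, 243, 224, 200 and 148 in control and 442, 403, 338, 341 and 264 in drought, and its groups did not overlap (log2 difference 0.92 ± 0.22 SE, adjusted p = 0.00815). This gene carried allele information. All 6709 of its counts in Bd3-1 and all 2774 in the F1 hybrid were assigned to the Bd3-1 allele, and it missed the criterion because Bd21 had no counts.

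Bradi1g71077 was also listed at 0 in all 6 Bd21 libraries and was detected in every Bd3-1 library. Its normalized counts were 66.1, 107, 56.6, 75.5 and 67.5 in Bd3-1 control and 70.6, 73.6 and 124 in Bd3-1 drought, at least 17.0-fold above Bd21 (adjusted p = 1.95e-05). In the F1 hybrid it varied widely, at 39.2, 20.4, 6.50, 91.04 and 23.9 in control and 66.9, 43.2, 38.5, 42.6 and 0 in drought. The allele columns were not stable for this gene, since 175 of its 731 counts in Bd3-1 plants were assigned to the Bd21 allele.

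Bradi1g78826 showed the reverse and was listed at 0 in all 8 Bd3-1 libraries. It lay in the short last block of chromosome 1, which held 3 genes, 2 of them called between accessions. Bd21 had normalized counts of 71.9, 49.2 and 102 in control and 99.3, 242 and 65.3 in drought, at least 36.7-fold above Bd3-1 (adjusted p = 1.01e-07). The F1 hybrid had it in all 10 libraries, at 58.7, 61.2, 36.4, 49.4 and 59.8 in control and 20.8, 22.1, 40.2, 38.1 and 89.8 in drought. Both allele columns were equal in every library, so the F1 counts could not be assigned to an allele.

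Bradi2g21473 lay in the longest stretch, on chromosome 2, and had 1 count in a single Bd3-1 library and 0 in the other 7. Bd21 had normalized counts of 383, 103 and 89.9 in control and 51.9, 126 and 65.3 in drought, at least 47.8-fold above Bd3-1 (adjusted p = 3.45e-06). The highest value came from Bd21 control replicate 1, a library with few counts. The F1 hybrid had 34.9, 3.89, 40.3, 18.2 and 64.1 in control and 37.2, 51.5, 52.4, 0 and 44.9 in drought. In all 4 genes the accessions did not overlap in either condition, which the rule that named them required.

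**Figure D3:**
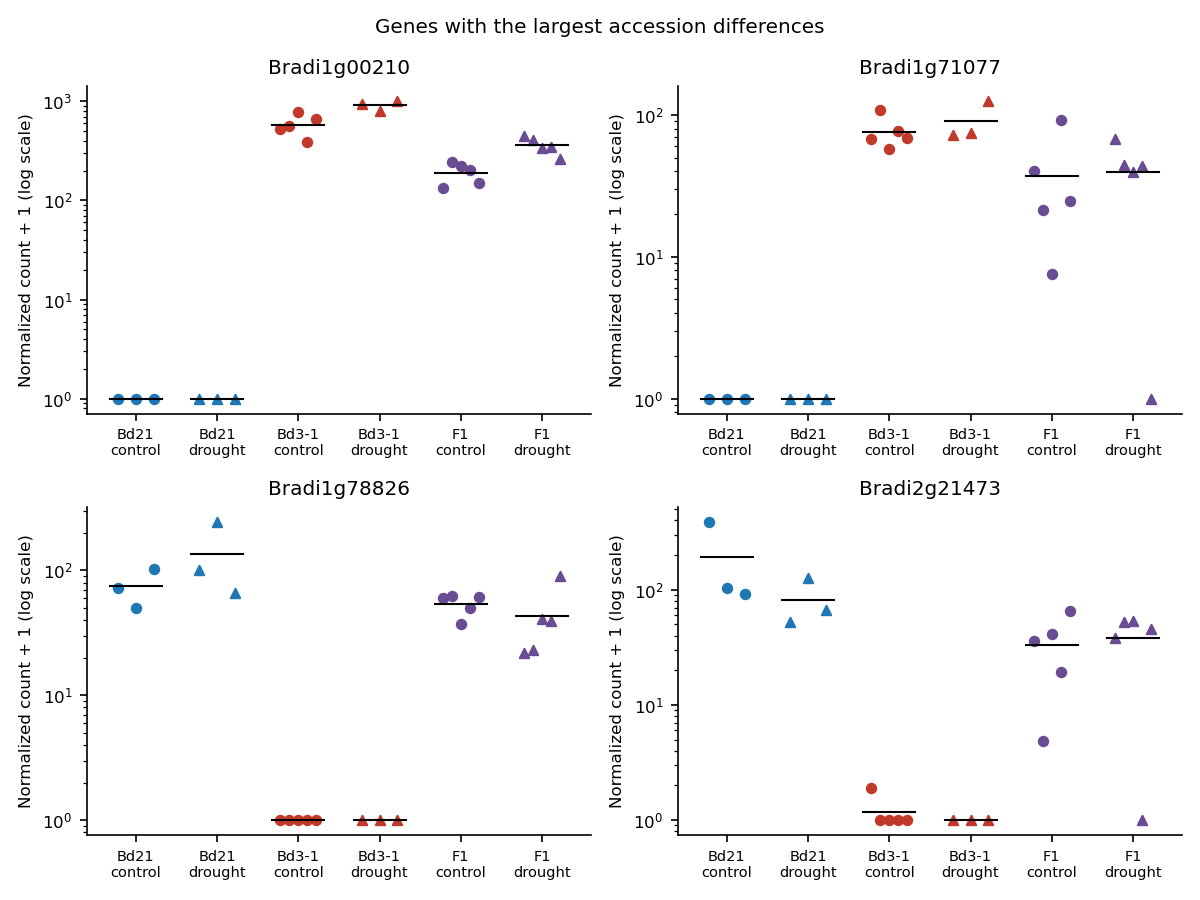
Normalized count plus 1 (log scale) of 4 genes in each of the 24 libraries, by genotype and condition. Points are libraries and lines are group means. Bradi1g00210 and Bradi1g71077 are at 0 in all 6 Bd21 libraries, and Bradi1g78826 is at 0 in all 8 Bd3-1 libraries.

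The level in the F1 hybrid was not fully independent of this choice. The filter counted F1 libraries, so a gene at 0 in all Bd21 libraries needed at least 3 of them above 0 and a gene at 0 in all Bd3-1 libraries at least 5, and F1 libraries entered the fit. The F1 levels are therefore given as a description. On the mean log2(normalized count + 1) scale, the F1 lay between the parents in 48 of 59 genes. On a scale from 0 at the Bd21 mean to 1 at the Bd3-1 mean, the median F1 position was 0.486 (quartiles 0.218 and 0.748). Of the 44 genes detected in both accessions, 35 lay between. The 15 genes near presence and absence, whose F1 mean the filter held above the silent parent, gave 13. Against the mid-parent on the log2 scale, 15 of the 59 were called (25.4%), the 4 genes above among them. Of all genes tested 6.59% were called against the mid-parent, and of the 1073 called between accessions 356 (33.2%). For a gene at 0 in 1 parent, the fitted log2 mid-parent depends on the prior count of the fit.

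**Figure D4:**
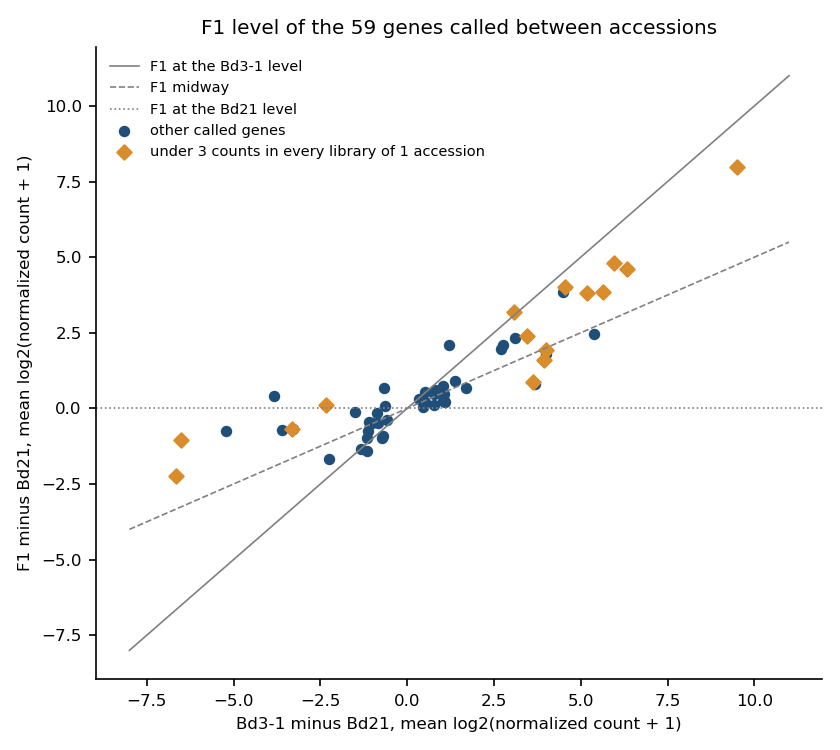
Mean log2(normalized count + 1) of the F1 hybrid minus Bd21 (y axis) against Bd3-1 minus Bd21 (x axis) for the 59 genes called between accessions. Of these, 48 lie between the line at the Bd21 level and the line at the Bd3-1 level. Diamonds are the 15 genes with under 3 counts in every library of 1 accession.

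Single F1 libraries lacked several of these 15 genes. F1 drought replicate 5 listed 8 at 0, F1 drought replicate 4 listed 7 and F1 control replicate 2 listed 6, against 0 in F1 drought replicate 1. The same 3 libraries listed the most of all 246 such genes at 0 (28.5%, 26.4% and 35.0%, against at most 15.4% in the other F1 libraries) and the most of all tested genes (12.1%, 11.3% and 13.8%, against at most 8.43%). Total counts were 10607196, 12767706 and 22473676. The part of detection in these zeros was not tested.

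No gene of these blocks was called in edgeR for a difference between accessions in its drought response. For G × E, 0 of the 4617 genes and 0% of all genes passed an adjusted p of 0.1 in edgeR. At an unadjusted p under 0.05 there were 143 (3.1%), against 3.4% of all genes. DESeq2 called 1, Bradi2g23207 (adjusted p = 0.0517), named after its value was seen. In simulated data with 200 genes changed by 2 on the log2 scale, this contrast recovered 48.5%, against 86% for the accession contrast.

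The drought response of the parents was called in few genes. In Bd21, 3 genes were called, 2 higher and 1 lower in drought (0.065%, against 0.0972% of all genes, with 0.0751% higher and 0.0221% lower). In Bd3-1, 24 were called, 8 higher and 16 lower (0.52%, against 0.72% of all genes, with 0.433% higher and 0.287% lower). Of the 24, 23 were also called in the F1 hybrid in the same direction, 8 of 8 that rose and 15 of 16 that fell. Over all genes tested, it was 92 of 98 and 59 of 65. All 3 of the Bd21 genes were called in the F1 hybrid too, and over all genes 16 of 17 that rose and 3 of 5 that fell. DESeq2 called 35 genes of undistinguished blocks in Bd21 and 137 in Bd3-1. These counts depend on single libraries. The Bd21 count of calls was 0 without any 1 of the 6 Bd21 libraries, without F1 control replicate 3 or without F1 drought replicate 1. It was 1 without Bd3-1 control replicate 2, Bd3-1 drought replicate 1 or 2, or F1 drought replicate 5, 5 without Bd3-1 drought replicate 3 or F1 drought replicate 4, and 9 without Bd3-1 control replicate 3. The Bd3-1 count was 3, 11, 38, 6 and 50 without Bd3-1 control replicates 1 to 5, 2 and 7 without Bd3-1 drought replicates 1 and 3, 45 without F1 control replicate 2 and 41 without F1 drought replicate 3.

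Bradi2g45470 rose in all 3 genotypes. Its function is not given in the files. Its normalized counts in Bd21 were 177, 189 and 179 in control and 1302, 1683 and 1122 in drought (log2 difference 2.91 ± 0.57 SE, adjusted p = 0.0457). In Bd3-1 they were 114, 266, 324, 207 and 490 in control and 1972, 2206 and 991 in drought (2.62 ± 0.47, adjusted p = 0.00677). In the F1 hybrid they were 74.9, 307, 170, 363 and 46.7 in control and 2261, 2752, 1329, 3251 and 2112 in drought (3.61 ± 0.45, adjusted p = 1.87e-05). Control and drought did not overlap in any genotype, which the rule that named this gene required in Bd21 and Bd3-1. The Bd21 call was lost without any 1 of 14 libraries, namely the 6 Bd21 libraries, Bd3-1 control replicates 2 and 4, Bd3-1 drought replicates 1 and 2, F1 control replicate 3 and F1 drought replicates 1, 2 and 5 (2.74 to 3.04). The accessions were not distinguished in this gene (log2 difference 0.48 ± 0.36, adjusted p = 0.597).

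Bradi1g66890 also rose in all 3 genotypes, by 0.998 ± 0.20 SE on the log2 scale in Bd21 (adjusted p = 0.0457), 1.004 ± 0.17 in Bd3-1 (adjusted p = 0.00438) and 1.16 ± 0.15 in the hybrid (adjusted p = 3.39e-05). Its normalized counts were 608, 732 and 636 in Bd21 control and 1331, 1479 and 1140 in Bd21 drought. Bd3-1 went from 567.6 to 908 in control to 1331 to 1583 in drought, and the F1 hybrid from 630 to 885 to 1368 to 2181. Bradi1g59830 was the gene that fell in Bd21, from 1299, 998 and 1142 to 715, 663 and 517 (log2 difference -0.86 ± 0.16, adjusted p = 0.0379). It fell in the F1 hybrid as well (-0.77 ± 0.12, adjusted p = 0.000299), and its difference in Bd3-1 was -0.37 ± 0.14 (adjusted p = 0.246). The Bd21 call of Bradi1g66890 was lost without any 1 of the same libraries as for Bradi2g45470 except Bd3-1 control replicate 4 and F1 drought replicate 2 (12 libraries, 0.91 to 1.09). That of Bradi1g59830 was lost without any Bd21 library, F1 control replicate 3 or F1 drought replicate 1 (-0.96 to -0.73). Without both Bd21 libraries with the most genes at 0, the adjusted p in Bd21 was 0.498 for Bradi2g45470, 0.536 for Bradi1g66890 and 0.329 for Bradi1g59830.

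Bradi2g22400 fell in Bd3-1, from 4864, 2990, 3452, 3742 and 1186 in control to 849, 795 and 743 in drought (log2 difference -2.03 ± 0.48, adjusted p = 0.0433). In the F1 hybrid it fell from 6415, 2269, 4523, 3497 and 6921 to 630, 375, 1132, 201 and 603 (-3.00 ± 0.41, adjusted p = 4.86e-05). In Bd21 it went from between 2754 and 3826 to between 550 and 1572 without passing the test (-1.61 ± 0.50, adjusted p = 0.304). This gene passed the allele criterion in 13 of 14 parental libraries, and in Bd21 drought replicate 2 its 205 counts were divided equally. In the F1 hybrid 14465 counts were assigned to the Bd21 allele and 11174 to the Bd3-1 allele. F1 drought replicate 4 had 132 counts of the Bd21 allele and 0 of the other, and F1 drought replicate 5 had 309 of the Bd3-1 allele and 0.000359 of the other. Its call in Bd3-1 was lost when any 1 of 14 libraries was left out, namely Bd21 control replicates 1 to 3, Bd21 drought replicate 1, Bd3-1 control replicates 1, 2 and 4, the 3 Bd3-1 drought replicates, F1 control replicates 3 and 4 and F1 drought replicates 1 and 5, with log2 differences of -2.08 to -1.84.

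**Figure D5:**
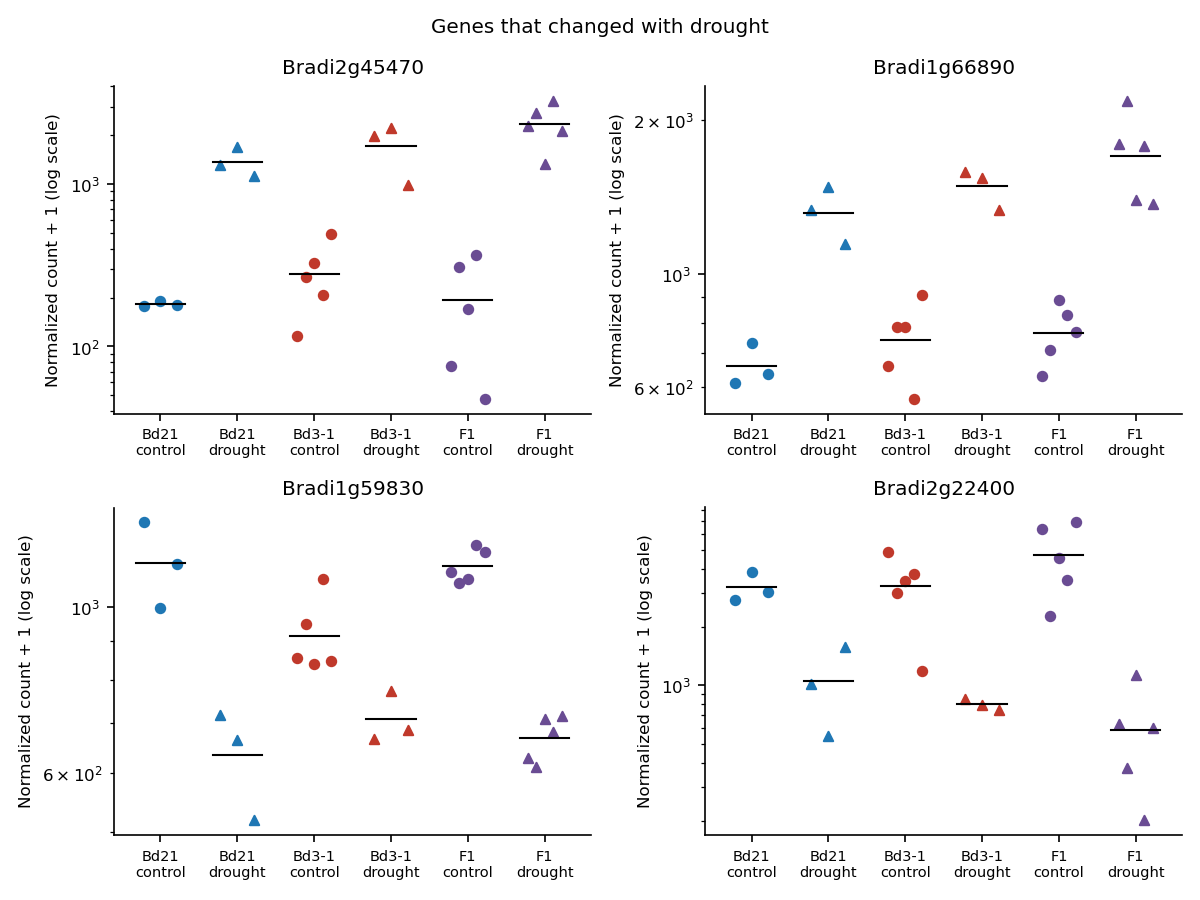
Normalized count plus 1 (log scale) of 4 genes in each of the 24 libraries, by genotype and condition. Points are libraries and lines are group means. In Bradi2g45470 and Bradi1g66890 drought plants lie above control plants in every genotype, and in Bradi1g59830 and Bradi2g22400 they lie below.

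Bradi4g34420, on chromosome 4, rose in Bd3-1 from between 218 and 434 to between 715 and 1743 (log2 difference 1.77 ± 0.37, adjusted p = 0.0232) and rose in the F1 hybrid (1.05 ± 0.33, adjusted p = 0.0316), where the groups overlapped. Bradi2g32627 fell in Bd3-1 from between 126 and 590 to between 29.02 and 59.9 (-2.86 ± 0.65, adjusted p = 0.0343) and fell in the F1 hybrid (-2.92 ± 0.53, adjusted p = 0.000853). In Bd21 neither passed the test, at 1.37 ± 0.43 and -2.08 ± 0.67. The Bd3-1 call of Bradi4g34420 was lost without Bd3-1 control replicate 1 or 4 or drought replicate 1 (1.21 to 1.71), and that of Bradi2g32627 without Bd3-1 control replicate 1, 2 or 4 or any drought replicate (-3.13 to -2.55). The F1 call of Bradi4g34420 was lost on leaving out F1 drought replicate 1, 2 or 5 or F1 control replicate 3 or 5 (0.84 to 1.01).

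The F1 hybrid had the most drought calls, from 5 drought and 5 control libraries of a separate dry-down. Bd21 had 3 and 3 libraries and Bd3-1 had 3 and 5. Numbers of calls therefore do not compare the size of the drought response between genotypes. In undistinguished blocks 677 genes were called (14.7%, against 14.9% of all genes tested), 315 of which rose (6.82%, against 7.58%) and 362 fell (7.84%, against 7.31%). Among genes with a total above 1 in all parental libraries, 626 (19.7%) were called, and 2478 (20.4%) in the other blocks, with a median absolute log2 difference of 0.375 and 0.379. Undistinguished blocks were thus near the background for drought, unlike for accession. Without F1 control replicate 1, 429 genes were called.

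Bradi2g11567, on chromosome 2, was listed at 0 in all 5 F1 control libraries and at 446, 607, 43.4, 1723 and 170 in F1 drought (adjusted p = 6.93e-05). It was at most 6.32 in Bd21 and at most 5.89 in Bd3-1 control, and lay between 12.4 and 66.0 in Bd3-1 drought. Bradi4g34430, the neighbour of Bradi4g34420, went the other way. It was at 410, 27.2, 160, 91.04 and 262 in F1 control and at 0 in all F1 drought libraries except replicate 3, with 14.8 (adjusted p = 0.00354). Bradi5g25945 was low throughout, at 9.36 to 32.6 in F1 control and at 0 in all F1 drought libraries except replicate 3, with 1.64 (adjusted p = 0.0223). Its call was lost without F1 drought replicate 1, 2 or 4, and its parental groups overlapped between conditions.

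Against the mid-parent, 268 genes were called in the F1 hybrid (5.80%, against 6.59% of all genes), 168 higher (3.64%, against 4.53%) and 100 lower (2.17%, against 2.06%). Without F1 control replicate 1 or F1 control replicate 5 the count was 167. Bradi3g29580 was the only gene of these blocks whose 10 F1 libraries did not overlap with the 14 parental libraries, against 0.0177% of all genes. Its normalized counts were 118, 312, 356, 258 and 202 in F1 control and 104, 151, 186, 59.4 and 455 in F1 drought, and ranged from 598 to 4852 in the parents (log2 difference -2.59 ± 0.36, adjusted p = 4.28e-05). Its function is not given in the files.

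The most abundant genes of these blocks did not separate the accessions either. Bradi1g25860 had a mean normalized count of 266169, with group means of 311333 in Bd21 control and 311980 in Bd3-1 control (log2 difference over both conditions -0.05 ± 0.22, adjusted p = 0.960). It fell in F1 drought (-0.998 ± 0.26, adjusted p = 0.0105), a call lost with only the compared groups in the fit (adjusted p = 0.0525). Control and drought did not overlap in Bd21 (-0.69 ± 0.33, adjusted p = 0.569) or Bd3-1 (-0.80 ± 0.30, adjusted p = 0.243) either. Neither passed the edgeR test, and DESeq2 called the fall in Bd3-1 (adjusted p = 0.0266). Bradi2g62315, with a mean of 159276, passed no test, and its accession difference was 0.23 ± 0.19. Bradi2g44856, with a mean of 130930, fell in F1 drought (-2.38 ± 0.51, adjusted p = 0.00316) and was higher in the F1 hybrid than the mid-parent (1.13 ± 0.32, adjusted p = 0.0341). Its F1 control values ran from 104500 to 678300 and overlapped with drought, and its call against the mid-parent was lost without any 1 of 10 libraries, F1 control replicates 1 and 5 among them (0.88 to 1.15).

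Of 56 genes named in the study, 7 lay in undistinguished blocks, 2 each of its phenylpropanoid, drought and circadian genes and 1 of its example genes. None of the 7 was called between accessions, where 1.28% of the genes of undistinguished blocks and 4.74% of all genes were. A set of 7 genes is too small to compare with these shares. Bradi5g19250 encodes F3H, an enzyme of flavonoid synthesis. It had normalized counts of 187, 383 and 185 in Bd21 control and 0, 109, 144, 17.5 and 39.4 in Bd3-1 control, and of 519, 384 and 217 against 14.5, 82.2 and 64.9 in drought. The accessions did not overlap in either condition, but the difference did not pass the test (log2 -2.41 ± 1.10, adjusted p = 0.282). In the F1 hybrid 5 of 10 libraries were at 0, and F1 drought replicate 4 was highest with 245.

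Bradi2g11676 encodes an R2R3 MYB transcription factor of a family that regulates phenylpropanoid synthesis in other species. Its accession difference was -0.87 ± 0.30 (adjusted p = 0.105). It was called without Bd3-1 control replicate 3 (adjusted p = 0.0331), without F1 drought replicate 4 (0.0377) and in DESeq2 (0.0441). Normalized counts were 735 to 750 in Bd21 control and 213 to 855 in Bd3-1 control. It rose in F1 drought (1.37 ± 0.35, adjusted p = 0.00914), from 353 to 741 in control to 779 to 2577, and without F1 drought replicate 4 the difference was 0.91 and no longer called.

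Bradi3g43870, which the drought rule also named, is the ortholog of RAB18, a dehydrin that accumulates when Arabidopsis cells lose water. Its F1 normalized counts were 5.96, 0, 1.299, 15.6 and 0 in control and 598, 1065, 642, 2728 and 150 in drought (7.84 ± 1.11, adjusted p = 7.67e-05). In Bd3-1 it lay between 0 and 6.56 in control and between 14.7 and 84.4 in drought, and in Bd21 between 0 and 2.74 and between 0 and 105, with differences that did not pass the test (4.19 ± 1.15, adjusted p = 0.0875, and 5.59 ± 1.74, adjusted p = 0.304). Bradi2g20660, which the study lists under stomatal movement, rose in F1 drought (0.77 ± 0.24, adjusted p = 0.0344), and its call was lost on leaving out F1 drought replicate 1, 2 or 4 or F1 control replicate 2, 3 or 4 (0.58 to 0.77). Its differences in Bd21 and Bd3-1 were 0.90 ± 0.32 and 0.74 ± 0.28.

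The circadian genes passed no test. Bradi2g62067 is the ortholog of rice LUX and of Arabidopsis BROTHER OF LUX ARRHYTHMO, MYB-like clock factors, and Bradi5g19380 of REVEILLE 2/7, MYB-like factors related to the clock's morning genes. Their accession differences were 0.12 ± 0.28 and 0.42 ± 0.50. Bradi4g20520, of unknown function, rose in F1 drought (6.05 ± 1.42, adjusted p = 0.0058), from between 0 and 108 in control to between 76.2 and 10970. The highest value was F1 drought replicate 4, and without it the difference was 3.14 and no longer called. None of the listed abscisic acid (7), G × E (2), glucose module (11) or chlorophyll and pigment module (7) genes lay in undistinguished blocks. These lists hold only genes that the study's text names, and its full G × E and module lists were not looked up.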

How the data were processed

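Per the labels and the study's methods, poly(A) libraries were made with a directional kit. The authors called Bd3-1 variants from Bd3-1 RNA-seq reads against the Bd21 reference Bdistachyon_556_v3.2, kept those present in most replicates, used g2gtools and emase to make a transcriptome with both alleles, mapped reads there with bowtie, and deposited the expected counts that emase estimated for each allele. The submitters' processing notes name Trimmomatic 0.38, cutadapt 3.7, STAR 2.6.1b, GATK 4.2.5.0 and Bowtie 1.2.2. The 48 columns (a Bd21 and a Bd3-1 allele count for each of 24 libraries, 32439 genes) are not normalized, and genes without a variant have counts divided equally. For near-identical gene copies, whose reads emase apportions, the counts are uncertain.

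Here the allele columns were summed, rounded and tested in edgeR 4.0.16 under R 4.3.3 (quasi-likelihood F-test, TMM), with 1 coefficient for each of 6 groups over all 24 libraries. Genes with a total above 0 in more than 10 libraries (22639, of which 22636 on chromosomes 1 to 5) were tested, and p-values were adjusted by Benjamini-Hochberg, with a threshold of 0.05 (0.1 for G × E). Standard errors were taken as the log2 difference divided by the square root of F. The allele thresholds are those of the study's methods, applied here to all 14 parental libraries (3403 genes distinguishable, 3401 of them in blocks), and the blocks of 50 are not the study's. The study reports more genes from its own use of these thresholds, so some of them can lie in undistinguished blocks. The members and the gene lists were chosen with earlier results of these data known. Groups came from the sample titles. Each replicate pair of a group (39 pairs) differed by more than sampling noise (lowest chi-square 17.4 per degree of freedom), and all 24 libraries were kept as separate samples. The study describes the plants of the experiment that gave most parental samples as biological replicates, and its F1 samples came from plants grown from crossed seed. The p-values measure the spread between these samples, of which a part may be technical.

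Named are, for each contrast, at most 2 genes higher and 2 lower with the largest differences among those called whose higher group averaged 10 or more normalized counts and no overlap between libraries, the 3 most abundant genes, and the 7 genes the study names. The RefSeq table given (31335 genes) matched 0 of the identifiers. The fit was tested on simulated data in 22639 genes, 200 of them changed by 2 on the log2 scale, and recovered 86% for accession and 78.5% for F1 drought. False calls made up 8.02% of the calls for accession, 1.88% for F1 drought and 11.8% for G × E. The simulated spread followed abundance rather than each gene's own spread, and changed genes had a mean normalized count of at least 10, so real data can be harder. Alternatives were DESeq2 1.42.0, relative log expression factors, other low-count filters, fits on the compared groups alone, a replicate block, each library left out, and other block and allele criteria. Leaving out the 2 or 6 libraries with the most genes at 0, and all alternatives for the F1 hybrid against the mid-parent, were chosen after seeing the data. Table handling used pandas 2.3.3 and numpy 2.4.6 (Python 3.11.15), and matplotlib 3.10.9 drew the figures.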

Additional observations from a re-analysis of the deposited data

Results flagged for a closer look

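In groups of 5 plants, a single library stood far from the other 4 in 6 of 70 groups checked for the named genes (8.57%). For continuous values chance flags about 1 in 20. That rate does not apply here, since any count above 0 is flagged where the other 4 libraries are at 0. Most named genes were also chosen on their values. Bradi1g71077 was at 0 in F1 drought replicate 5, with 38.5 to 66.9 normalized counts in the other F1 drought plants. Bradi2g21473 was at 0 in F1 drought replicate 4, against 37.2 to 52.4 in the others, and at 0.893 (1 count) in Bd3-1 control replicate 1, where the others were at 0. Bradi2g11676 was at 2577 in F1 drought replicate 4, against 779 to 1032 in the others. In F1 drought replicate 3, Bradi4g34430 was at 14.8 and Bradi5g25945 at 1.64, where the other F1 drought plants were at 0 for both genes. F1 drought replicates 4 and 5 had the lowest totals among F1 libraries, 12767706 and 10607196, and the part of depth in their zeros was not tested.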

How the results depend on the processing

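The share of genes called between accessions was lower in undistinguished than in other blocks in all 33 fits, at 0.845% to 2.36% against 4.53% to 7.91%. DESeq2 called 109 genes between accessions, 54 in control and 32 in drought, 1 for G × E, and 35 and 137 for drought in Bd21 and Bd3-1. With only the groups compared in the fit, the drought counts were 22 in Bd21 and 8 in Bd3-1. Replicate numbers did not pair the samples (51 correlations of -0.161 to 0.125, 4 above 0.1). With the replicate number as a block, 42 genes were called between accessions (37 of the 59), 15 in control, 0 and 9 for drought in Bd21 and Bd3-1, and 118 against the mid-parent. Without the 2 libraries with the most genes at 0, 39 were called between accessions and 0 for drought in Bd21. Without the 6 with the most, 19 were called between accessions in drought, 1 for drought in Bd21 and 15 in Bd3-1. Blocks of 25 gave 8467 members and 130 called, blocks of 100 gave 1564 and 17, and the allele criterion on accession means gave 1564 and 14. Of members with a total above 1 in all parents, 33 were called. Leaving out each library in turn gave 40 to 70 calls between accessions, 16 to 32 in control, 10 to 15 in drought, 0 to 0 for G × E, 0 to 9 and 2 to 50 for drought in Bd21 and Bd3-1, 429 to 805 in the F1 hybrid and 167 to 311 against the mid-parent. Among values of single named genes, 1253 kept their call, 116 lost it, 13 gained one and 0 reversed. Where a value changed, the cause was not tested. A listed 0 allows an expected count of up to 3 in that library, counting error only.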
